A study of Drosophila melanogaster with 3 samples.

Results

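The cytoplasmic ribosomal protein genes of *Drosophila melanogaster* were examined for binding of CG12391, assayed in this ChIP-seq series as a candidate transcription factor. They were chosen by name, as the protein-coding genes whose symbol begins with RpL (large subunit) or RpS (small subunit), together with sta, which encodes the small-subunit protein SA. The rule gave 93 genes, 54 for the large and 39 for the small subunit, of 13945 protein-coding genes annotated on the 6 chromosome arms. Chromatin immunoprecipitation and sequencing (ChIP-seq) had been done on whole embryos of both sexes, 0 to 24 h old, of a transgenic line in which CG12391 carried GFP at its C terminus, with an antibody to GFP. There was 1 group of 3 biological replicates, with no second genotype, age or treatment. The promoter that drove the tagged protein was not given in the sources used here. In a mixture of all embryonic tissues, binding in few cells and weak binding in many cells cannot be told apart.

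Nearly every protein of the cell is made by the cytoplasmic ribosome, whose large subunit joins amino acids and whose small subunit reads the messenger RNA. Its proteins are needed in matched amounts, and in flies the loss of 1 copy of many of these genes gives the slow-growing Minute phenotype. Many of their promoters start transcription at a pyrimidine-rich initiator, the TCT element, and their messenger RNAs begin with a pyrimidine tract. Several proteins are encoded by a pair of genes, of which the second is in some cases used mainly in the germ line.

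The data were 5 deposited peak lists on genome build dm6. Each peak has a summit, the position of its highest signal, and a signal value given by the authors' peak caller, whose scale was not stated. A gene was called bound if any annotated transcription start site (TSS) of it had a summit within 500 bp. One list was thresholded by IDR, the irreproducible discovery rate, a measure of how alike replicates rank their peaks. It held 8522 peaks, which were the 8522 strongest of the pooled list. For comparison at equal length, the 8522 strongest peaks on the arms were taken from each replicate and are called its top peaks. Signal values differ in scale between lists. The median peak of replicate 2 had a signal of 65.3, against 33.1 in replicate 1 and 32.6 in replicate 3, so replicates were compared by rank. Read depth was unknown, and control libraries were not analysed here.

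CG12391 was found at most ribosomal protein genes. In the IDR-thresholded list 77 of the 93 genes were bound, or 82.8%, whereas 34.4% of all protein-coding genes were. Among top peaks, replicate 1 marked 77 of them, where 35.3% of all protein-coding genes were marked. Replicate 2 marked 78, with 32.8% of all genes, and replicate 3 marked 78, with 35.3% of all genes. The mean share of ribosomal protein genes was 83.5% ± 0.621 (SD, n = 3), and that of all protein-coding genes was 34.5% ± 1.44 (SD, n = 3). The replicates therefore differed by 1 gene in count. The same genes were marked, since 75 of the 77 bound genes, or 97.4%, had a top peak in all 3 replicates, and 75.8% of all bound protein-coding genes did. With every peak counted, 83 of the 93 genes had a pooled summit, against 52.2% of all genes. The complete replicate lists marked 82 in replicate 1, 83 in replicate 2 and 84 in replicate 3, beside 53.9%, 51.4% and 55.0% of all genes. Bound genes lay on every arm. All 15 ribosomal protein genes of the X chromosome were bound, where 36.0% of protein-coding genes were. RpS3A, the single one on chromosome 4, was bound with a signal of 559, at an arm where 13.8% of protein-coding genes were bound. RpS3A and the X chromosome are named here after their values were seen.

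The strongest sites were at RpL7, RpS27 and RpL34b, and 7 of the 10 strongest belonged to the large subunit. RpL7 encodes a large-subunit protein, and its summit lay 28 bp into the transcript, in a UTR exon (2L, peak from 10200829 to 10201237). Its signal was 2325, rank 250 of the IDR-thresholded list, and its peak ranked 150, 391 and 182 in replicates 1, 2 and 3. The RpL7 summit was also 58 bp from the TSS of Ripalpha, an opposite-strand gene for an interaction partner of replication protein A. RpS27, of the small subunit, likewise had a signal of 2325, at rank 251, with the summit 18 bp upstream of its TSS (3R, 25247288 to 25247795) and 126 bp from that of the nucleoporin gene Nup37. Its peak ranked 194, 258 and 356 in the replicates. At RpL34b (3R, 9401108 to 9401602) the signal was 2296 and the summit lay 140 bp upstream, with ranks of 225, 303 and 246. All 3 genes were thus among the 400 strongest peaks of every replicate.

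Sequence at these sites is shown on the strand of the gene, 5′ to 3′, from the Release 6 assembly, whose coordinates are those of dm6. Capitals mark a match to TATCGATA, the DNA replication-related element (DRE) bound by Dref, or to GGTCACACT, the element bound by M1BP, on either strand. Both elements belong to promoters of broadly used genes. For RpL7 the stretch between the neighbour's TSS and the first 20 bases of the transcript is given, and it holds the M1BP element reversed. The others reach 50 bases to each side of the summit, ending where an exon begins. RpS25 and RpL28 are shown because the DRE lay beside the summit, RpL28 being chosen for this after its values were seen, and RpS27, RpL34b, RpL14 and RpL23A because they were strong sites with neither element.
RpL7, chr2L:10200975-10201023 (plus strand): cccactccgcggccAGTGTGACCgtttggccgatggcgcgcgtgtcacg
RpS27, chr3R:25247515-25247582 (minus strand): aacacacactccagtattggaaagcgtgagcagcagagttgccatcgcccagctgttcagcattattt
RpL34b, chr3R:9401316-9401416 (minus strand): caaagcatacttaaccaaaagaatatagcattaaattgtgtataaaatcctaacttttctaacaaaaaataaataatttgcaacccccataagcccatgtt
RpL14, chr3L:8600925-8601005 (plus strand): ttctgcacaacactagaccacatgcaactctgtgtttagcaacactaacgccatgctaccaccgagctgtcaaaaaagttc
RpL23A, chr3L:1668706-1668806 (minus strand): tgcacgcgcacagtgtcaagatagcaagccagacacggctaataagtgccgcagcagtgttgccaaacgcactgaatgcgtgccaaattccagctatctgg
RpS25, chr3R:11216315-11216415 (minus strand): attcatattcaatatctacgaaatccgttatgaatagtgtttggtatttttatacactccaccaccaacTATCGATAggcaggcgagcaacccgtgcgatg
RpL28, chr3L:3223044-3223144 (minus strand): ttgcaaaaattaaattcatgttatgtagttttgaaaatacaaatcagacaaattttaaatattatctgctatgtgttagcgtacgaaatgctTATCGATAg
The A+T share within 50 bp of the summit was 39.6% at RpL7, 46.5% at RpL23A and 50.5% at RpS27, and it was 72.3% at RpL34b and 74.3% at RpL28.

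Of the remaining strong sites, RpL14 had a signal of 1944 with the summit 31 bp upstream. RpL23A had 1885 at 102 bp upstream, with no other protein-coding TSS within 500 bp of the summit. RpS20 had 1812 at 156 bp upstream, RpL19 had 1715 at 58 bp, RpL34a had 1696 at 118 bp and RpS25 had 1525 at 78 bp. Replicates ranked some of these sites less alike: the RpS20 peak was at rank 806 in replicate 1, 477 in replicate 2 and 372 in replicate 3. RpL14, whose peak is shared with the elongation-control gene Nelf-E, ranked 200, 585 and 277. At the lower end, RpL35 had a signal of 366, RpL24-like of 329 and RpL7A of 262. RpS28a had 244, close to the lowest signal of the list, 227.2. Its summit lay 486 bp downstream of its TSS, beyond the end of this short gene, and 59 bp from the TSS of Mgat2, which encodes a glycosylation enzyme. RpS28a was the member nearest inside the edge of the window. RpL40, with an IDR-thresholded summit 538 bp upstream and a signal of 395 there, was the nearest outside it.

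**Figure D1:**
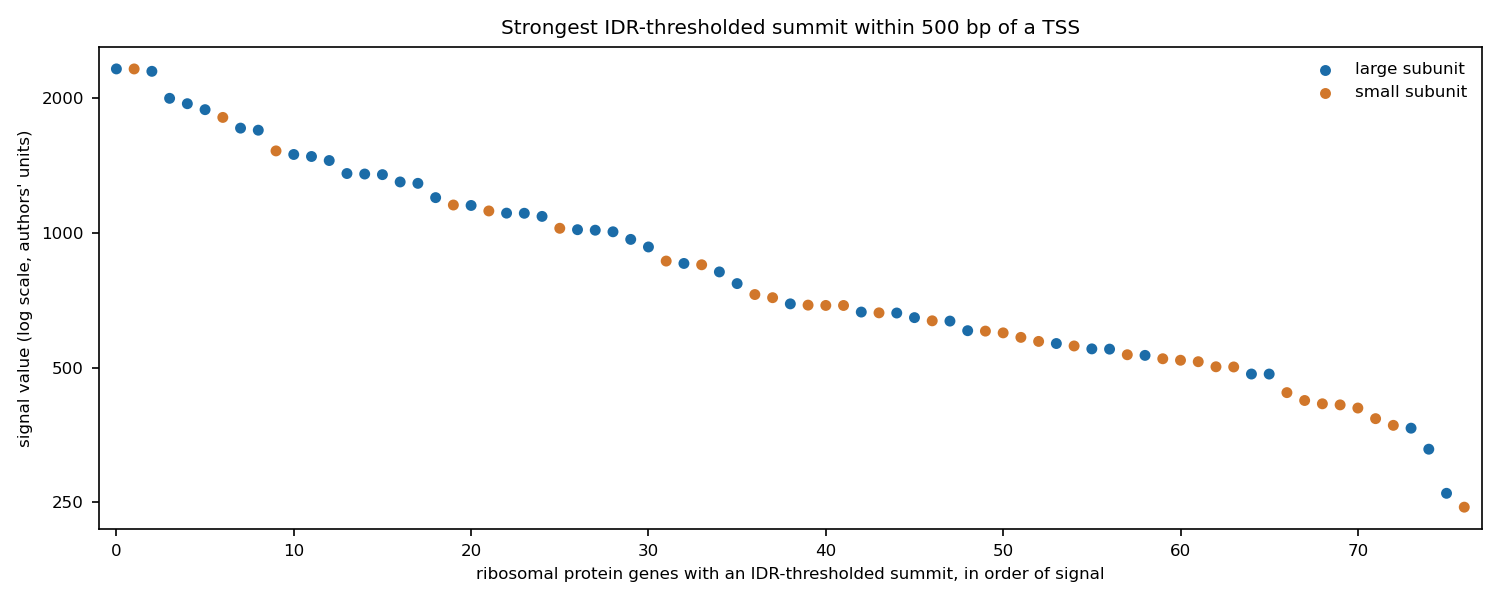
Signal of the strongest IDR-thresholded summit within 500 bp of a TSS at each of the 77 bound ribosomal protein genes, in the authors' units on a log axis, ordered along the x axis and coloured by subunit. Values run from 2325 at RpL7 to 244 at RpS28a, and large-subunit genes hold 16 of the first 20 places.

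Large-subunit genes carried stronger peaks than small-subunit genes, though they were not bound more often. In the IDR-thresholded list 43 of 54 large-subunit genes (79.6%) and 34 of 39 small-subunit genes (87.2%) were bound. Among top peaks the large-subunit share was 81.5% ± 1.85 and the small-subunit share 86.3% ± 1.48 (SD, n = 3 each). The share was lower for the large subunit in each replicate by 1.28 to 7.55 percentage points. The 11 unbound large-subunit genes include RpL21, RpL5, RpL38, RpL10 and RpL15, which lie toward the centromere with no summit within 500 bp in any list. None of the unbound small-subunit genes lies there, and the part this plays in the shares was not tested. The median signal of bound genes was 1014 for the large subunit, 591 for the small subunit and 562 for all bound protein-coding genes. In the replicates the large-subunit median was 1.42, 1.53 and 1.68 times the small-subunit median, or 1.54 ± 0.128 (SD, n = 3). The median ranks for the large subunit were 1278, 1337 and 1371, and those for the small subunit 2415.5, 2509 and 3031, so the ranges of the replicate medians did not overlap. For all marked protein-coding genes the median ranks were 3338, 2834 and 3474, behind those of both subunits in each replicate. Above the ribosomal protein median of 694 lay 28 of 43 large-subunit and 10 of 34 small-subunit genes. The subunits overlapped widely gene by gene, from 262 to 2325 for the large and from 244 to 2325 for the small subunit.

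**Figure D2:**
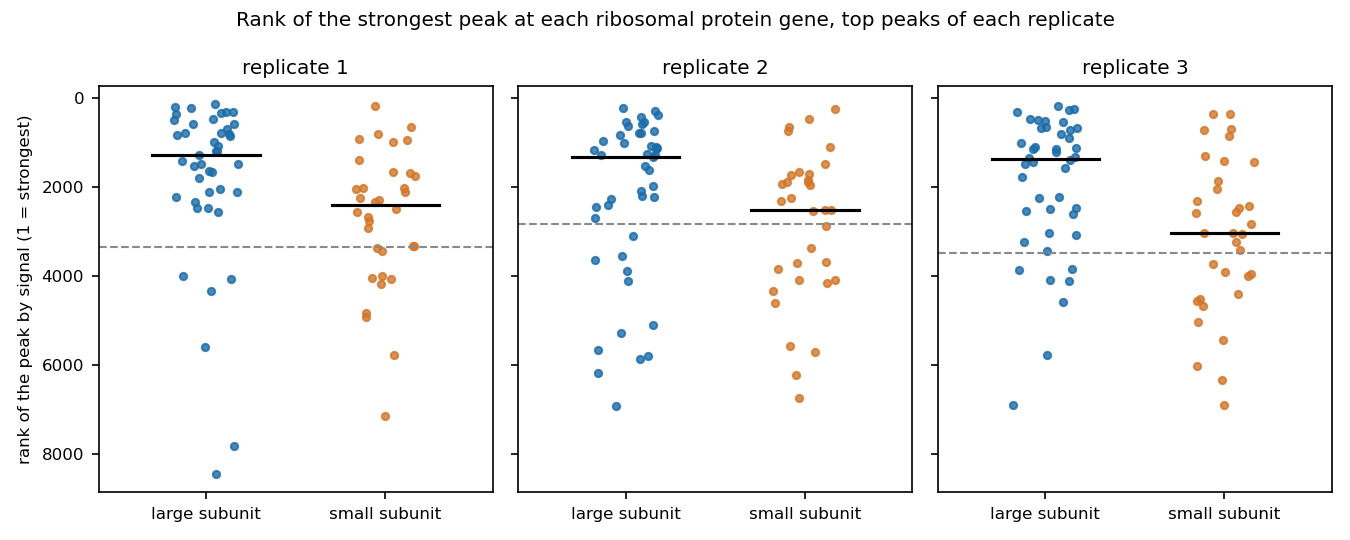
Rank by signal of the strongest top peak at each ribosomal protein gene in each replicate (rank 1 at the top of the y axis), with large-subunit genes in blue, small-subunit genes in orange, black bars for medians and a dashed line for the median of all marked protein-coding genes. The large-subunit medians lie at 1278, 1337 and 1371 and the small-subunit medians at 2415.5, 2509 and 3031.

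Signal at the 77 bound genes was ordered most alike in replicates 1 and 3. Across these genes Spearman's rho reached 0.886 for replicates 1 and 3, and it was 0.704 for replicates 2 and 3 and 0.637 for replicates 1 and 2. The points share their libraries, and genes are not independent replicates, so the values describe the lists. RpL26, named after its values were seen, shows the difference, with its peak at rank 8441 in replicate 1, 1014 in replicate 2 and 2612 in replicate 3. For 3 genes the top peaks of the replicates disagreed on whether the gene was marked. RpL24-like, related to a yeast ribosome assembly factor, ranked 14322, 5794 and 6888, and RpS28a ranked 1671, 11042 and 3914. RpL40, which encodes ubiquitin fused to a ribosomal protein, ranked 12454, 6927 and 8602.

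Summits at ribosomal protein genes lay closer to the TSS than those of bound genes as a whole. The median distance was 67 bp, against 137 bp for all bound protein-coding genes, 133 bp for bound genes of the mitochondrial ribosome and 134 bp for bound proteasome genes. The short distance was not theirs alone, since the 4 bound translation elongation factor genes had a median of 30 bp, with all 4 summits within 100 bp. In the top peaks of replicates 1, 2 and 3 the elongation factor medians were 23, 40 and 23 bp. Within 100 bp lay 55 of 77 summits, or 71.4%, against 33.5% of all bound genes. In the IDR-thresholded list the side of the TSS was similar to that of other genes. Upstream summits numbered 68, downstream 8 and at the TSS 1, which makes 88.3% upstream, compared with 89.3% of all bound genes. Among top peaks the upstream share in replicates 1, 2 and 3 was 62.3%, 93.6% and 78.2%. For all marked genes it was 84.3%, 90.6% and 87.4%, so ribosomal protein genes had the lower share in replicates 1 and 3. Bound ribosomal protein genes had a median of 2 annotated TSSs and all bound genes a median of 1, and the distance was taken to the nearest. With the most upstream TSS alone the median at ribosomal protein genes was 75 bp. The matching median of all bound genes is not given here, so the part the number of TSSs plays in the contrast was not tested. In the replicates the median distance was 34, 81 and 41.5 bp at ribosomal protein genes and 116, 152.5 and 120 bp at all marked genes, so it was shorter in all 3.

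Replicate 2 placed its summits farther upstream than the others. At the 77 genes the median positions in replicates 1, 2 and 3 were 22, 79 and 35 bp upstream, and 49, 72 and 61 summits, respectively, were upstream of the TSS. The replicate 2 summit was the most upstream of the 3 at 49 genes, or 63.6%, against 36.6% of the 4655 protein-coding genes with a summit in all lists. Over those 4655 genes the medians were 117, 137 and 118 bp upstream. The SD of a gene's summit position over the replicates had a median of 29.4 bp. Chromatin had been sheared to between 200 and 800 bp, so these shifts in position are finer than the fragments. With respect to the gene, 62 summits were outside it, 13 in a UTR exon, 2 in an intron and 0 in coding sequence.

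**Figure D3:**
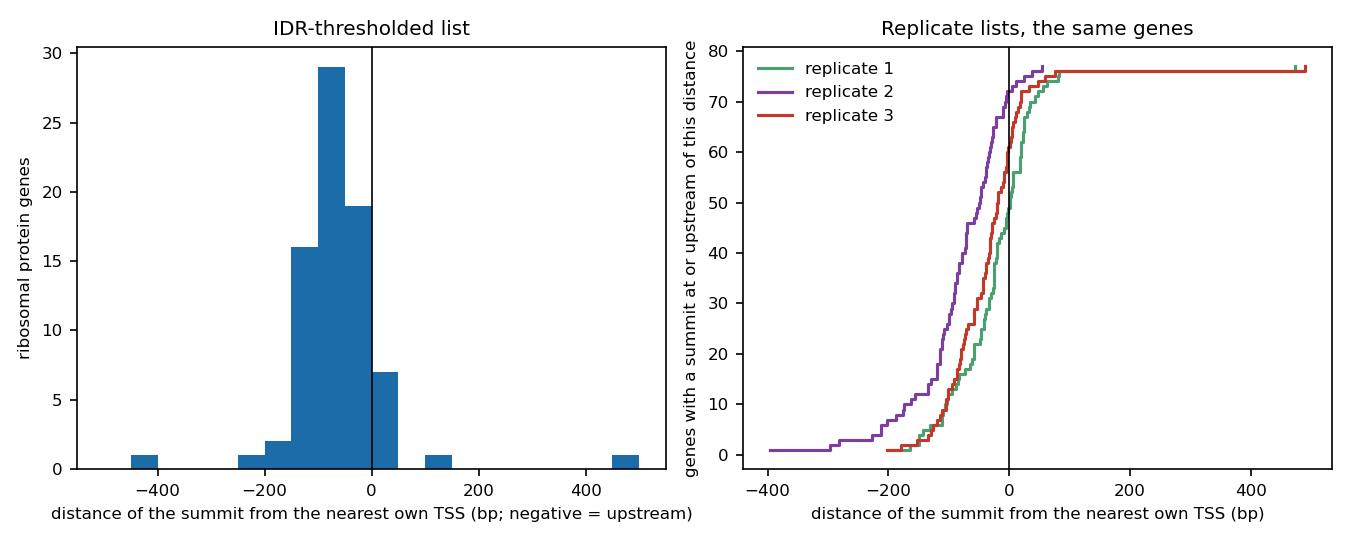
Distance in bp from the summit to the nearest TSS of its ribosomal protein gene, negative upstream, as a histogram of genes for the IDR-thresholded list (left) and as cumulative gene counts for the replicates at the same 77 genes (right). Of the IDR-thresholded summits, 55 lie within 100 bp of the TSS, and the curve of replicate 2 runs to the left of the others.

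Many of the summits were shared with a neighbouring gene. At 38 of the 77 bound genes, or 49.4%, the strongest summit was also within 500 bp of the TSS of another protein-coding gene, compared with 57.9% of all bound genes. The neighbour was on the opposite strand in 36 of the 38 cases. The ribosomal protein gene had the nearest TSS, or tied for it, in 33 of the 38 (86.8%), against 51.3% of such summits at all bound genes. The median signal was 1053 with a neighbouring TSS and 647 without one. The same order held within the large subunit (1199 and 794), within the small subunit (636 and 559) and over all bound genes (628 and 481). When each summit was given only to the gene with the single nearest TSS, 73 ribosomal protein genes were bound. The share of all protein-coding genes under that rule is not given here. For the strongest summits, the gene's own TSS was nearest or tied among coding genes at 72 of 77 bound ribosomal protein genes (93.5%). Over all bound genes that share was 71.8%. One shared peak, singled out after its values were seen, joined RpL13 and Dref, the gene for the DRE-binding factor (2L, 9966992 to 9967472). Its signal was 1199, and it lay 50 bp upstream of RpL13 and 34 bp from the Dref TSS. In replicates 1, 2 and 3 that peak ranked 789, 1173 and 1115. Genes for small nucleolar RNAs (snoRNAs), which guide the modification of ribosomal RNA, lay inside 29 of the 93 ribosomal protein genes, and 27 of these 29 were bound (93.1%). Of the 64 without one 50 were bound (78.1%). Among all protein-coding genes, ribosomal protein genes included, 63 of the 84 with a snoRNA gene inside were bound.

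The 16 unbound genes fell into 9 that belong to a paralogue pair and 7 that do not. Among the 7, RpL21, RpL5, RpL38, RpL10 and RpL15 encode large-subunit proteins with no paralogue in the pairs used, and all 5 lie toward the centromere. Their distances from the proximal end of the assembled arm were 1.27 Mb for RpL21 and 0.981 Mb for RpL5 on 2L, 4.52 Mb for RpL38 on 2R, and 5.02 Mb for RpL10 and 0.843 Mb for RpL15 on 3L. None of them had a summit in any of the 5 lists within 500 bp. The nearest IDR-thresholded summit was 116515 bp away for RpL21, 405332 bp for RpL5, 1181378 bp for RpL38, 185264 bp for RpL10 and 4357048 bp for RpL15. Their surroundings were repeat-rich, with 31.9%, 33.1%, 30.1%, 40.6% and 35.4% of bases within 50 kb soft-masked in the assembly, in the order just given. Around the bound genes this share ran from 7.13% to 30.6% with a median of 13.0%, so RpL38 was within their range. On the same arms the bound genes nearest to the proximal end were RpL30 at 4.51 Mb on 2L, RpL31 at 9.59 Mb on 2R and RpLP0 at 6.03 Mb on 3L, named for their position. Around all but RpL38 few other genes had summits. Within 100 kb, a summit in any list marked 1 of 8 protein-coding genes around RpL21, 0 of 4 around RpL5, 2 of 3 around RpL38, 0 of 5 around RpL10 and 0 of 1 around RpL15, not counting these genes themselves. Over the 6 arms 62.7% of protein-coding genes had a summit in any list, and around the bound ribosomal protein genes the median share was 73.0%. RpL21, RpL5 and RpL15 lay beyond the outermost summit of every list, as did 59 protein-coding genes in all. Whether reads could be placed, or peaks were filtered, in these regions was not tested, and absence from the lists there cannot be told apart from absence of binding.

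The other 2 of these 7 genes, RpL9 and RpL40, had a summit within 500 bp of the TSS in all 3 replicates. RpL9 had a top peak in every replicate, at ranks 1660, 5279 and 3084, with summits 45, 14 and 16 bp from its TSS and signals of 164, 215 and 140.5. In the pooled list its strongest summit had a signal of 61.0, below the IDR-thresholded minimum, and lay 223 bp upstream. Of 76 ribosomal protein genes with a top peak in all 3 replicates it was the single one without an IDR-thresholded summit, and 33 of 3671 protein-coding genes had this pattern. RpL40 had its strongest pooled summit inside the window 316 bp upstream, with a signal of 134, and another pooled summit 11 bp from its TSS, besides the stronger summit outside the window.

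Paralogue pairs were seldom bound equally. Of 14 pairs, 5 had both genes bound, 9 had 1 gene bound and 0 had neither. The pairs are not all separate, since RpS28b is paired with RpS28a and also with RpS28-like. RpS28a counts as bound by the summit described above, 486 bp from its TSS and 59 bp from that of Mgat2. Of the 27 genes in a pair 18 were bound (66.7%), and of the 66 in no pair 59 were bound (89.4%). The largest contrast with a value on both sides was RpL7 with a pooled signal of 2325 and RpL7-like, related to a yeast ribosome assembly factor, with 155, a ratio of 15.0. RpS5a had 604 and RpS5b, which is used mainly in the germ line, had 62.5, a ratio of 9.66. RpS10b had 1155 and RpS10a 127, and RpS15Aa had 439.8 and RpS15Ab 147. In the other 5 pairs with 1 bound gene the partner had no pooled summit. These were RpL22 (1152) with the germ-line gene RpL22-like, RpS19a (689) with RpS19b, RpL37-1 (550.1) with RpL37-2, RpL10Ab (533) with RpL10Aa, and RpS28b (689) with RpS28-like. RpS19b did have weak summits in replicates 1 and 3, 345 and 391 bp upstream, at ranks 18105 and 9917. The RpL10Ab summit lay 412 bp upstream of its TSS and nearer, at 164 bp, to the TSS of CG11597 on the opposite strand. In replicates 1, 2 and 3 the strongest summit was 6, 396 and 75 bp from the RpL10Ab TSS.

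Both genes were bound in the pairs RpL34a (1696) and RpL34b (2296), RpL24 (1291) and RpL24-like (329), RpLP0 (1349.8) and RpLP0-like (551), RpS14a (572) and RpS14b (413), and RpS28a (244) and RpS28b (689). RpLP0 forms the base of the ribosomal stalk. In the replicates RpL34a ranked 485, 533 and 672, behind RpL34b each time. The RpS14 genes lie in tandem on the X chromosome, with TSSs 1156 bp apart and an identical run of 122 bp in the windows compared. Reads that fall wholly inside that run match both copies, and the part this plays in their signals was not tested. Promoter identity over the pairs, in an alignment of the 300 bases around the most upstream TSS, was between 42.4% and 51.4%. The RpS14 pair had 50.2%, and RpL10Aa and RpL10Ab, with no identical run of 20 bp, had 51.4%. No identity of unrelated promoters is set beside these values, so they are not a measure of conservation. Identical runs of 20 bp or more were found in the RpS14 pair, the RpS10 pair (26 bp) and the RpS15A pair (25 bp) only.

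**Figure D4:**
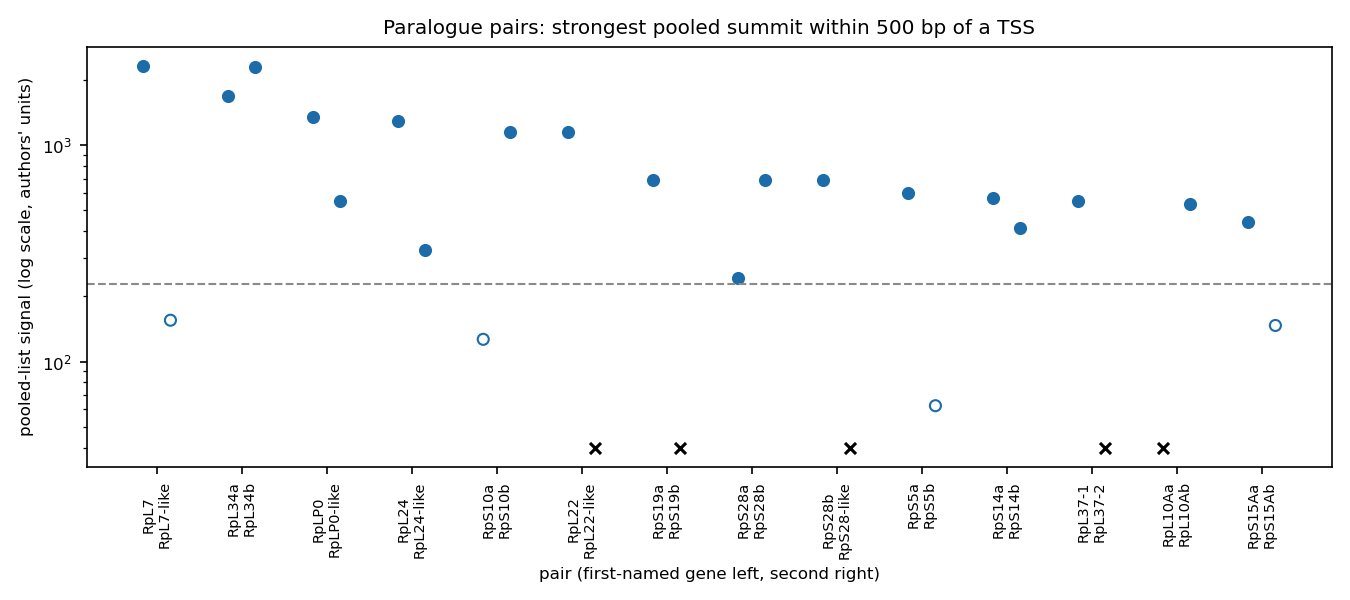
Signal of the strongest pooled summit within 500 bp of a TSS for both genes of each paralogue pair, in the authors' units on a log axis. Filled circles are genes with an IDR-thresholded summit, open circles genes with a pooled summit alone, crosses genes with no pooled summit (placed at the bottom, with no value), and the dashed line is the lowest IDR-thresholded signal, 227.2. In 9 pairs 1 gene is filled and the other is not.

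The pair RpS5a and RpS5b shows how a bound and an unbound promoter of the same protein compare in sequence. The 100 bases before the most upstream TSS and the first 20 of the transcript are given on the gene strand, with capitals for CTTT, the core of the TCT initiator, where its C was within 5 bp of the TSS.
RpS5a, chrX:17148245-17148364 (minus strand): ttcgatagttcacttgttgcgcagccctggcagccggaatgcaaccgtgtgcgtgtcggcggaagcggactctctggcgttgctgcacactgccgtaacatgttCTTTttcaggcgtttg
RpS5b, chr3R:14901544-14901663 (minus strand): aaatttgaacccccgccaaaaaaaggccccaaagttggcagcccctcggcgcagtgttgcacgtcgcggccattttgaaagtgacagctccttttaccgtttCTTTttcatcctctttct
Both hold the CTTT at the start, neither holds TATCGATA or GGTCACACT in this stretch, and an alignment of the promoters gave 49.1% identity. The stretches differ in CGATA, a shorter element counted below, which RpS5a holds near its beginning and RpS5b lacks. In the wider promoter window used for that count both genes had CGATA. The peak of RpS5a ranked 2929, 2538 and 5035 in replicates 1, 2 and 3. RpS5b had no summit in replicate 1 and ranked 13287 and 15124 in replicates 2 and 3.

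Promoter elements were counted as matches of letters, from 250 bp before to 50 bp after the most upstream TSS on both strands, and a match is not evidence of a used site. TATCGATA was found at 28 of 93 ribosomal protein promoters, or 30.1%, and at 9.37% of all protein-coding promoters. It was present at 33.8% of the bound ribosomal protein genes and at 2 of the 16 unbound ones (12.5%). Over all protein-coding genes it was at 16.7% of the bound and 5.50% of the unbound. CGATA, the short site of the insulator protein BEAF-32 that also lies inside TATCGATA, was at 73.1% against 47.5%. GGTCACACT was at 10.8% against 6.05%, and CATCNCTA, a form of core promoter Motif 7, at 9.68% against 6.43%. Among bound genes alone CGATA was still more frequent, at 77.9% of ribosomal protein genes and 58.6% of all. For GGTCACACT and CATCNCTA the differences among bound genes were small or reversed. There GGTCACACT was at 13.0% of ribosomal protein genes and 11.2% of all, and CATCNCTA at 10.4% and 12.5%. The TATA box as TATAAA was at 48.4% against 45.9%. CTTT on the gene strand, with its C within 5 bp of any TSS, was at 58 genes, or 62.4%, against 8.07%. With the most upstream TSS alone it was at 33.3% against 5.64%. It was at 50 of the 77 bound and 8 of the 16 unbound ribosomal protein genes.

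Near the summits the DRE was more frequent at ribosomal protein genes than elsewhere, and A+T-rich sequence less so. Within 50 bp of the summit TATCGATA lay at 13 of 77 genes (16.9%), against 4.87% of all bound genes. GGTCACACT lay at 4 (5.19%, against 2.25%), CGATA at 40 (51.9%, against 24.0%) and TATAAA at 13 (16.9%, against 26.1%). CATCNCTA lay at 2 (2.60%, against 2.62%). Signal did not follow the DRE upward, with a median of 676 in the 26 bound genes that had TATCGATA in the promoter and 728 in the 51 that did not. The median A+T share within 50 bp of the summit was 58.4% at ribosomal protein genes and 70.3% at all bound genes, while sequence 500 bp to either side was 53.5% and 52.5% A+T. In the replicates the medians were 56.4%, 59.4% and 56.4%, against 66.3%, 71.3% and 67.3% at all marked genes. Distance moved with it. For summits within 100 bp of the TSS the medians were 55.4% at 55 ribosomal protein genes and 61.4% at all bound genes, and for summits farther away they were 71.8% at 22 genes and 72.3%.

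**Figure D5:**
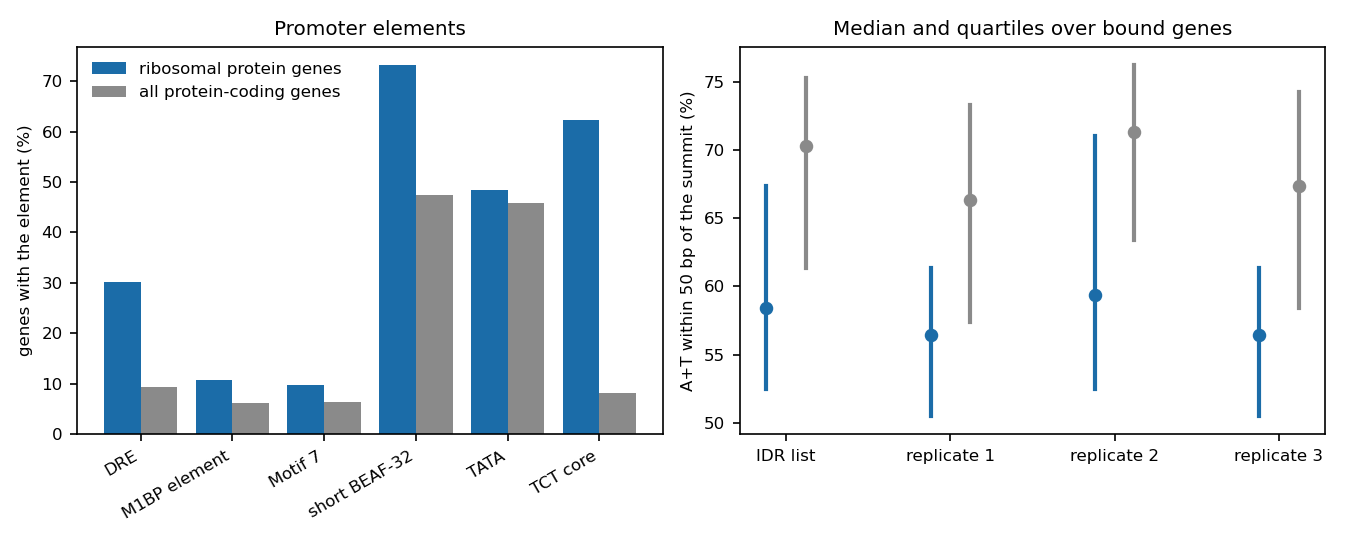
Left, percentage of ribosomal protein genes and of all protein-coding genes with each element, counted in the promoter or, for the TCT core, within 5 bp of a TSS. Right, A+T percentage within 50 bp of the summit as median (point) and quartiles (line) over bound genes, ribosomal protein genes in blue and all in grey, for the IDR-thresholded list and the top peaks of each replicate. The DRE stands at 30.1% against 9.37% and the TCT core at 62.4% against 8.07%, and the A+T median of the IDR-thresholded list at 58.4% against 70.3%.

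Other genes of protein synthesis and turnover were set beside these by the same rule. The mitochondrial ribosome had 48 of 73 genes bound (65.8%), with a median signal of 641 and its strongest peaks at mRpL41 (6804), mRpS10 (6764) and mRpS23 (5682), well above the 2325 of RpL7. Genes with proteasome symbols were bound in 25 of 48 cases (52.1%), with a median of 513, led by Rpn3 (1574), Rpn11 (1111) and Rpn5 (1087). Of 20 ribosome assembly genes 17 were bound (85.0%, beside 82.8% of the ribosomal protein genes), with a median of 838, led by eIF6 (3142), NHP2 (1198) and Non1 (1060). Of 7 translation elongation factor genes 4 were bound, with a median of 939, led by eEF1gamma (1824), eEF2 (1104) and eEF1alpha1 (774). Of 9 promoter factor genes 6 were bound, with a median of 1029, led by M1BP (1940), TfIIA-L (1514) and Dref (1199). In the IDR-thresholded list the medians of the last 3 lists were thus above the 694 of the ribosomal protein genes. The order was less steady among top peaks, where the ribosomal protein medians were 159, 467 and 175 in replicates 1, 2 and 3. Only the promoter factor medians were higher in every replicate (191, 547 and 242). Ribosome assembly genes had 131, 494 and 134, lower in replicates 1 and 3. Elongation factor genes had 153, 456 and 266, lower in replicates 1 and 2.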

How the data were processed

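ChIP-seq of CG12391-eGFP was represented by 5 deposited peak lists of 3 biological replicates. Per the deposited file lists, peaks were called on each replicate and on the 3 together, each against a control alignment, on dm6, and then thresholded by IDR. The signal per peak and the summit offset (in bp, unit other) are the authors' values. The aligner, peak caller, IDR setting and read depth were not stated there or in the labels. Replicate and pooled lists held 30000 peaks each, of which 22 of replicate 1 were off the 6 arms and left out.

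TSSs came from Ensembl release 115, sequence and soft-masking from the Release 6 assembly. Python 3.11.15, pandas 2.3.3, numpy 2.4.6, scipy 1.17.1, Biopython 1.88 and matplotlib 3.10.9 were used. The gene of a summit was any with a TSS within 500 bp, and its strongest summit was described. The assignment was tested on simulated peaks. Genes are described by counts and medians beside all protein-coding genes, with no test, since 1 group offers no contrast. Alternatives were other windows, TSS choices, lists and gene rules, and leaving out each replicate.

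Ribosomal protein genes, comparison lists, pairs and motifs were chosen with earlier results of these data known. Named were every unbound gene, the 10 strongest and 5 weakest bound, all pairs, genes whose top-peak state differed between replicates, and the 3 strongest of each comparison list, apart from a few genes not reported here. Other names are stated as chosen after their values were seen. Replicates were labelled biological. The spread given is that between their peak lists.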

Additional observations from a re-analysis of the deposited data

How the results depend on the processing

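The count of 77 bound genes ranged from 55 with a 100 bp window to 83 with all pooled peaks across the settings tried. All pooled peaks marked 52.2% of all protein-coding genes. The share of all genes with a 100 bp window is not given here. With the 500 bp window, the strongest summit was within 100 bp at 71.4% of bound ribosomal protein genes and 33.5% of all bound genes. The count was 78 where a top peak in all 3 replicates also counted, an alternative chosen after seeing the data. Counts taken from the top peaks of the other replicates, leaving out each in turn, ran from 76 to 77 genes, 43 to 44 for the large and 33 to 34 for the small subunit, and the mean count from 77.5 to 78. Pairs with both genes bound were the least settled. Instead of 5 they numbered 3 with a 100 bp window, 3 with the single nearest TSS, 2 with the IDR-thresholded peaks above the list's median signal and 9 with all pooled peaks. They numbered from 3 to 4 with a replicate left out, the lowest without replicate 3. Summits shared with any other gene, coding or not, fell from 44 to 9 with a 100 bp window and 27 with a 250 bp window, by the narrower windows themselves. The median signal rose from 694 to 852 among peaks above the list's median, as that choice removes low values. Genes with TATCGATA or GGTCACACT near the summit rose from 17 to 31 when 100 bp to each side was searched, a window that holds more sequence. No paired analysis was possible because there was 1 group. Unknown read depth limits what absence from a list can show.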
